A study of Mus musculus with 40 samples.

Results

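The genes described here lie on mouse chromosome 17 within 5 Mb of *Trem2*, the gene that carries the H157Y knock-in in this study. They are the rows of the deposited table with a start from 43346401 to 53354147 (mm10), apart from genes whose name begins with Trem, that reached 10 counts or more in 4 or more of the 40 libraries. The window held 168 rows, of which 6 were named Trem and 46 stayed below that filter, 8 of these with no count in any library. The remaining 116 genes were 100 protein-coding genes, 7 TEC genes (the annotation's class for transcripts that still await experimental evidence), 3 lincRNAs, 3 processed pseudogenes, 2 processed transcripts and 1 antisense RNA. They stand among 21253 genes tested in the whole table, and 93 of them start below *Trem2* and 23 above it.

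Cortical mRNA was sequenced from 40 mice in 4 groups of 10, each with 5 females and 5 males. The non-amyloid cohort, at 6 months of age, held mice with 2 normal *Trem2* alleles (WT) and mice homozygous for *Trem2* H157Y (Hom). The amyloid cohort, at 8.5 months, held the same genotypes on the 5xFAD background, a transgenic amyloid model in which every mouse was hemizygous for the transgenes, which are expressed in neurons. The cohorts share no mouse, and amyloid background and age differ between them together. The knock-in was made by CRISPR/Cas9 in zygotes of B6/CBA F1 mice, mosaic founders were crossed to WT mice, and the study used the offspring of a single founder except where it names another. The alleles that each mouse carries at the genes around *Trem2* are not given in the sources used here, so the edited base and any linked allele cannot be told apart as the origin of a difference between Hom and WT mice.

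*Trem2* encodes a lipid-sensing receptor of microglia, the resident macrophages of the brain. Genes on the same chromosome segment as an edited site tend to be inherited together with it. The neighbours of *Trem2* on chromosome 17 have no shared function: they include chaperones, transcription factors, mitochondrial ribosome subunits, kinesins, calpains and transcripts of unknown role.

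Libraries bear the replicate numbers of their labels, which run from 1 to 40. Total counts ranged from 41646271 in replicate 19, an amyloid Hom female, to 105903846, and the next lowest was 62272158. In replicate 19, genes of the antisense biotype took 0.660% of all counts, against 0.0857% to 0.107% in the other 39 libraries, so the genotype counts and the genes whose calls it changed are also given without it. The summed level of neuronal markers, which are not particular to cortex, lay between 6143 and 7957 CPM (each count divided by its library's TMM-scaled total) in every library. The markers of the 7 cell type lists were read among genes that passed the count filter, so none could be at 0 in all libraries. *Trem2* itself had a mean of 62.2 ± 24.4 CPM in amyloid WT mice and 33.9 ± 10.3 CPM in amyloid Hom mice (SD, n = 10 each; log2 fold change −0.87, adjusted p = 0.0763 by edgeR's quasi-likelihood test), with 10.7 ± 2.13 and 10.4 ± 1.59 CPM in the non-amyloid groups. The summed level of 7 microglial markers ranged from 535 to 1223 CPM in amyloid WT mice and from 449 to 749 CPM in amyloid Hom mice. The part of these differences in the values of the neighbouring genes was not tested, and in bulk tissue fewer cells of a type and less RNA per cell cannot be told apart.

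To ask which neighbours of *Trem2* differed by genotype, the genotypes were set against each other in each cohort and over both cohorts together. Over both cohorts, 6 of the 116 genes were lower in Hom mice (*Capn11*, *Gm37176*, *Mdfi*, *Gm37593*, *Gm37266* and *Gm6934*) and 3 were higher (*Gm19585*, *Mrpl14* and *Plcl2*). A gene was called at an adjusted p under 0.05, over all genes tested, and a log2 fold change beyond 0.25 in either direction. The 9 genes make up 7.76% of the neighbours, beside 0.165% of all genes called in that fit (35 genes) and 0.579% of the 864 tested genes elsewhere on chromosome 17 (5 genes). Of the 9, *Mdfi* passed the count filter only through WT mice, where it was higher, with 10 counts or more in 11 WT and 1 Hom libraries. Within the amyloid cohort, *Gm37176*, *Capn11* and *Plcl2* were called, 3 of 116 genes beside 0.0753% of all genes. Without replicate 19, 4 neighbours were called in the amyloid cohort (*Gm37176*, *Gm37593*, *Gm37266* and *Plcl2*) beside 0.0706% of all genes, and *Capn11* was not (adjusted p = 0.0533 by edgeR). Over both cohorts 8 were then called, beside 0.127%, and the one lost was *Gm19585*. Within the non-amyloid cohort, *Gm37176*, *Gm37593* and *Gm37266* were called, again 3 of 116, beside 0.0329% of all genes, and DESeq2 called 5 there, beside 0.0518%. All other neighbours missed the call in each of these fits, which share mice: the fit over both cohorts uses the mice of the single-cohort fits.

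At an unadjusted p under 0.05, 19 neighbours (16.4%) differed in the amyloid cohort beside a background of 9.67%, and 26 (22.4%) in the non-amyloid cohort beside 4.61%. Over both cohorts the count was 29 (25%) beside 7.65%. Among the 864 tested genes elsewhere on chromosome 17 these shares were 12.8% in the amyloid cohort, 4.98% in the non-amyloid cohort and 11.9% over both. An unadjusted p under 0.01 in each cohort with the same direction was reached by 26 genes in the whole table (0.122%). Of the 26, 10 lay in this window, namely the 9 genes above and *Clic5*. Elsewhere on chromosome 17 lay 5 of them (0.579% of the 864 genes tested there). The median log2 fold change over the 116 genes was −0.03 in the amyloid and 0.03 in the non-amyloid cohort, and over all genes it was 0.0014 and −0.0031. The genes called were thus a small share of the window.

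**Figure D1:**
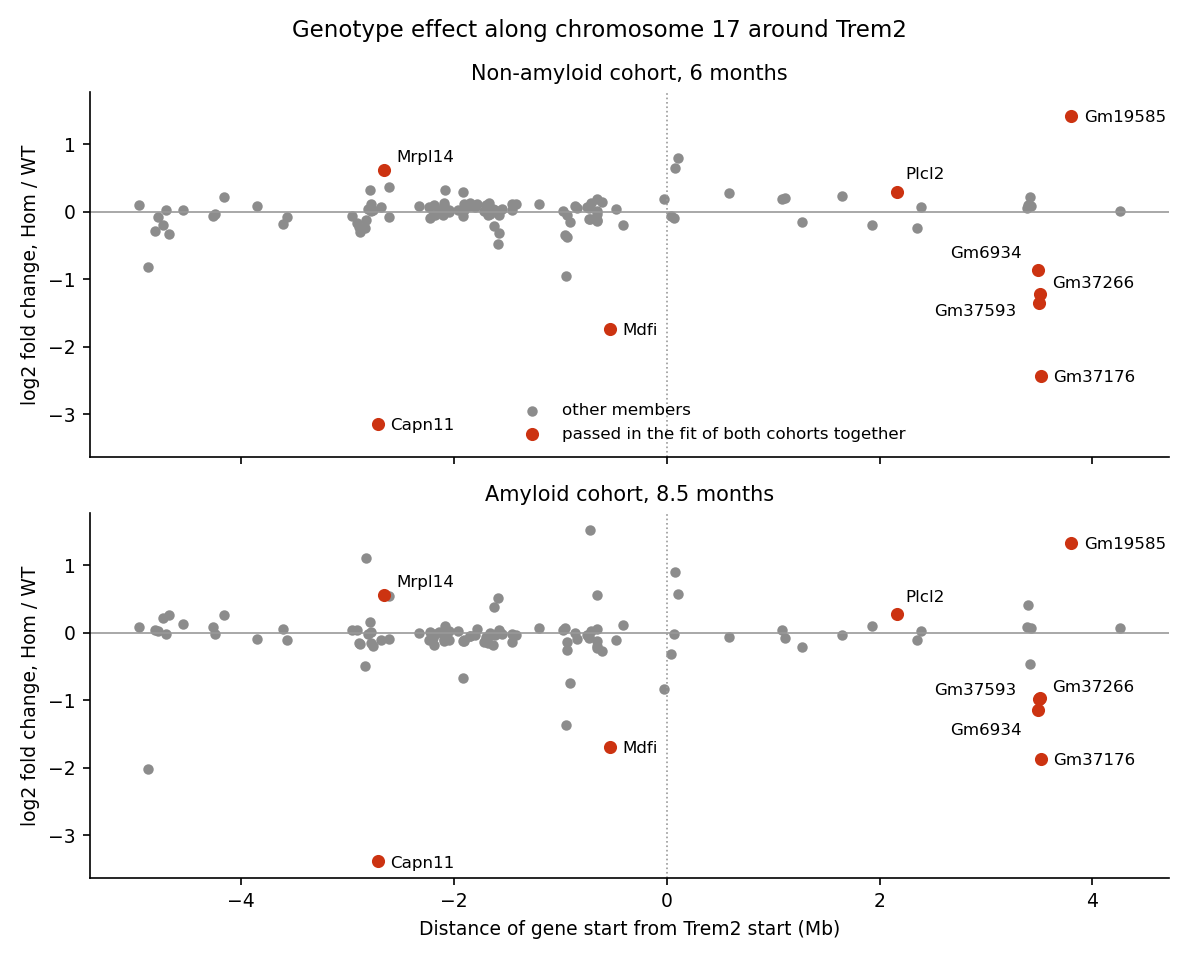
Log2 fold change of Hom against WT mice (vertical axis) for each of the 116 genes by the distance of its start from the start of *Trem2* in Mb (horizontal axis), with the non-amyloid cohort above and the amyloid cohort below; red points are the 9 genes called in the fit of both cohorts together. Gm37176, Gm37593, Gm37266 and Gm6934 stand together at 3.49 to 3.51 Mb, and *Capn11* has the lowest value in each panel.

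The 4 TEC genes *Gm6934*, *Gm37593*, *Gm37266* and *Gm37176* were lower in Hom mice and follow each other on the plus strand within 30.4 kb, from 51832819 to 51863217. They lie just beyond the start of *Satb1* (51736187 to 51833290, minus strand), which encodes a chromatin organizer of neurons and lymphocytes. *Gm6934* (ENSMUSG00000103753, 51832819 to 51834723) overlaps an exon of *Satb1* on the opposite strand over 128 bases, 6.72% of its exonic bases. *Gm37593* (ENSMUSG00000103358, 51842861 to 51846114), *Gm37266* (ENSMUSG00000102600, 51850239 to 51852525) and *Gm37176* (ENSMUSG00000103378, 51859167 to 51863217) overlap no exon of another gene in GENCODE vM21. No function is known for them from the annotation. The start of the outermost of them and the window before the *Satb1* start, which lies within *Gm6934*, are shown because the 4 TEC genes past this start were called over both cohorts, while *Satb1* and the 3 TEC genes within its locus were not. CpG dinucleotides are in capitals.

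Gm37176, first 300 bases of the annotated transcript, chr17:51859167-51859466, plus strand, GENCODE vM21 on GRCm38: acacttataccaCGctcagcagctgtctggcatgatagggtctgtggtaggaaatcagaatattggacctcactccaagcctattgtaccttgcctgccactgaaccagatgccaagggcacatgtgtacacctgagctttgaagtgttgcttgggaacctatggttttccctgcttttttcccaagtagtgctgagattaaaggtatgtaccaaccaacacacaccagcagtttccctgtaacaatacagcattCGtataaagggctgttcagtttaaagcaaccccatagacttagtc

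Satb1, 250 bases before to 50 after the start, chr17:51833241-51833540, minus strand, RefSeq on GRCm38.p6: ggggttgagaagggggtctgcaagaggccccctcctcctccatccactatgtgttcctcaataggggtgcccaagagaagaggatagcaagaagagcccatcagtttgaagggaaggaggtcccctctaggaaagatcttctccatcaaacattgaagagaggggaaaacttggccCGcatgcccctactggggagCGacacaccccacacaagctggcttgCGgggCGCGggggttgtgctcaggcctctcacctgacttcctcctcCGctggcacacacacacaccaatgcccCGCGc

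The *Satb1* window shown, that of its outermost start, holds 8 CpG, beside a median of 7 over the 32851 promoter windows of the same length in the table. The windows of 4 other *Satb1* starts hold 45, 3, 13 and 7. The *Gm37176* stretch, which is transcript and not a promoter window, holds 2. The *Satb1* window shown also holds CCAAT or its reverse complement ATTGG, as do 37.4% of all windows.

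*Gm37176* separated the genotypes most clearly. In the non-amyloid cohort its level was 3.13, 4.64 and 7.91 CPM (lowest, median and highest of 10 mice) in WT and 0.571, 0.915 and 2.12 CPM in Hom mice. The groups did not overlap, with all Hom mice at the lower side, and the highest Hom value was that of replicate 14. The log2 fold change was −2.43 (standard error 0.21, adjusted p = 9.11e-07 by edgeR), a 5.39-fold lower mean. In the amyloid cohort the levels were 2.57, 5.06 and 6.03 CPM in WT and 0.550, 0.936 and 4.41 CPM in Hom mice. Here 9 of 10 Hom mice lay under the WT range, and the tenth was replicate 19, whose 4.41 CPM fell among the WT values, while the next highest Hom mouse had 1.30 CPM. The log2 fold change was −1.87 (standard error 0.30, adjusted p = 0.00929 by edgeR) with replicate 19 and −2.31 (adjusted p = 1.13e-07) without it. The call held in each of the 20 fits per cohort that left out 1 library.

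*Gm37593* gave the same order. Its level in the non-amyloid cohort was 1.17, 1.77 and 2.67 CPM in WT and 0.454, 0.744 and 0.925 CPM in Hom mice, again with no overlap. The log2 fold change was −1.36, with a standard error of 0.15 and an adjusted p of 7.27e-05 by edgeR. The amyloid values were 0.953, 1.82 and 2.18 CPM in WT and 0.639, 0.754 and 1.95 CPM in Hom mice, and again the 1 Hom mouse inside the WT range was replicate 19. The log2 fold change of −0.98 (standard error 0.20) had an adjusted p of 0.0554 by edgeR and so missed the call, and without replicate 19 it was −1.17 with an adjusted p of 0.00140. Neighbours whose groups did not overlap numbered 2 in the non-amyloid cohort, beside 0.0188% of all genes, and 0 in the amyloid cohort, beside 0.00941%. Without replicate 19 the amyloid count was 2, *Gm37176* and *Gm37593*, beside 0.0282% of all genes (6 genes).

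*Gm37266* overlapped between the groups in both cohorts. Its level was 0.690, 1.73 and 2.62 CPM in non-amyloid WT and 0.388, 0.743 and 1.24 CPM in non-amyloid Hom mice and the log2 fold change was −1.22, with a standard error of 0.22 and an adjusted p of 0.0452 by edgeR. That call stood close to the threshold and failed in 17 of the 20 fits without 1 library, with adjusted p up to 0.114. In the amyloid cohort the levels were 0.902, 1.92 and 3.03 CPM in WT and 0.446, 0.804 and 2.89 CPM in Hom mice, the highest again in replicate 19 (log2 fold change −0.96, adjusted p = 0.149 with it, and −1.29, adjusted p = 0.0184 without it, both by edgeR). *Gm6934*, the weakest of the 4, had 0.165, 0.389 and 0.507 CPM in non-amyloid WT and 0.0883, 0.194 and 0.415 CPM in non-amyloid Hom mice. In the amyloid cohort it had 0.153, 0.437 and 0.695 CPM in WT and 0.0779, 0.178 and 0.422 CPM in Hom mice, the highest in replicate 19. Its amyloid log2 fold change was −1.14 (adjusted p = 0.0787 by edgeR) with that library and −1.32 (adjusted p = 0.0544) without it, and neither was called. It was called over both cohorts (log2 fold change −1.01, adjusted p = 0.00383 by edgeR), where *Gm37266* had a log2 fold change of −1.10 (adjusted p = 0.00205), *Gm37593* one of −1.17 (adjusted p = 1.84e-07) and *Gm37176* one of −2.16 (adjusted p = 6.98e-10).

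*Satb1* showed no difference that passed. Its level was 110, 130 and 156 CPM in non-amyloid WT and 107, 138 and 152 CPM in non-amyloid Hom mice, and 92.2, 120 and 143 CPM in amyloid WT and 117, 126 and 139 CPM in amyloid Hom mice. The log2 fold changes were 0.06 (standard error 0.07, adjusted p = 0.965) and 0.08 (standard error 0.06, adjusted p = 0.657 by edgeR). The other 3 TEC genes of the window lie inside the *Satb1* locus, and none was called: *Gm36931*, at 3.23 CPM on average and with exonic bases on the same strand as exons of *Satb1*, had a log2 fold change over both cohorts of 0.08. The other 2, *E430014B02Rik* and *C230085N15Rik*, had only 3 to 27 and 0 to 14 counts per library, so that a difference in them could hardly be called. At this locus the genes called were thus the 4 transcripts past the *Satb1* start. *Satb1* and the TEC genes within its locus did not pass the test, 2 of the latter on few reads.

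**Figure D2:**
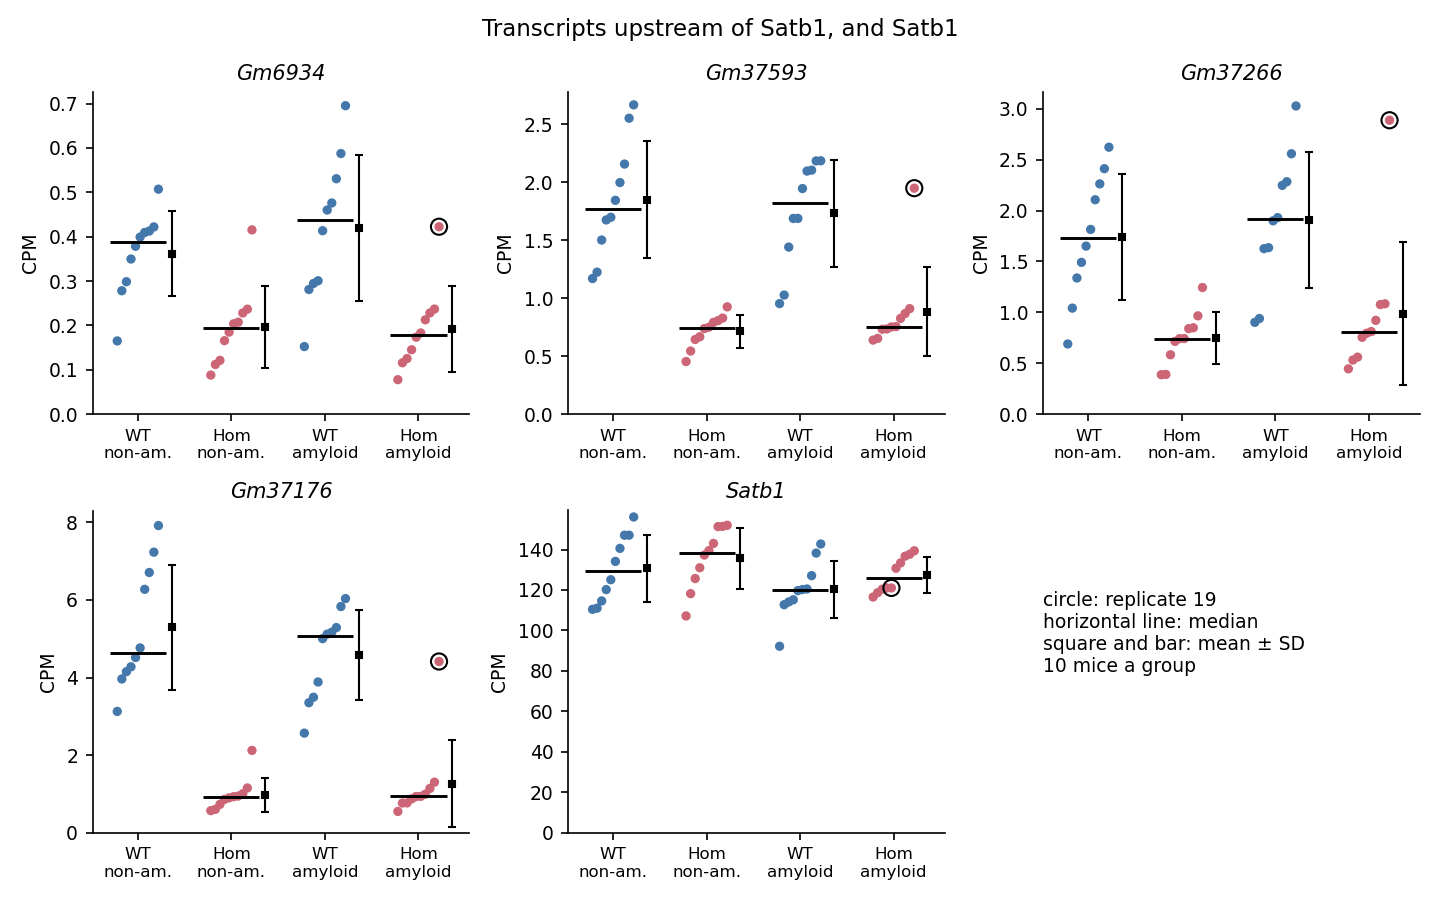
CPM (vertical axis, from 0) of the 4 TEC genes beyond the *Satb1* start and of *Satb1* in each of the 40 mice, by genotype and cohort (blue WT, red Hom); lines are medians, squares with bars are means ± SD of 10 mice, and the circle marks replicate 19. Hom mice sit below WT mice for Gm37176 except replicate 19 at 4.41 CPM, and *Satb1* has overlapping groups.

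*Capn11* (ENSMUSG00000058626, 45630204 to 45659325, minus strand), a calpain, that is a calcium-dependent protease, known for its expression in testis, had the largest fold change of the window in both cohorts. Its promoter window is shown beside that of *Mrpl14*, which starts 27 kb past its end in genome coordinates and was higher in Hom mice, because they are the closest pair called in opposite directions, with *Tmem63b* between them. CpG dinucleotides are again in capitals.

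Capn11, chr17:45659260-45659559, minus strand, RefSeq on GRCm38.p6: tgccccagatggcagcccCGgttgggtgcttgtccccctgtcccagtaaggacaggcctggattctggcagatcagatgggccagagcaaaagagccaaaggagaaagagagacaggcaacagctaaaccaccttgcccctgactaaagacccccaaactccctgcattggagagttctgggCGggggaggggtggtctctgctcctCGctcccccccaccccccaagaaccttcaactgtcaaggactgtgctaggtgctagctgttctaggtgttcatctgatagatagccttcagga

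Mrpl14, chr17:45686099-45686398, plus strand, RefSeq on GRCm38.p6: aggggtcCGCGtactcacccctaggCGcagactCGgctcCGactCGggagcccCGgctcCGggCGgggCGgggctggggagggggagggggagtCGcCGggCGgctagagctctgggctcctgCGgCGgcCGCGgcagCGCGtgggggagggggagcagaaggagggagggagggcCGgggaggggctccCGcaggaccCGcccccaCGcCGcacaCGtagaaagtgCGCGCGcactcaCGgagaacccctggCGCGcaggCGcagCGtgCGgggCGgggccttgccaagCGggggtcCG

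The *Capn11* window holds 3 CpG and a CCAAT or ATTGG match, and the *Mrpl14* window holds 37 CpG and no such match. Of all promoter windows, 31.4% have 3 CpG or fewer and 26.5% have 20 or more. The table had a window for 87 of the 116 neighbours and for 5 of the 10 genes with an unadjusted p under 0.01 in each cohort.

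The level of *Capn11* was 0.113, 0.548 and 6.72 CPM in non-amyloid WT and 0.0801, 0.190 and 0.272 CPM in non-amyloid Hom mice. In the amyloid cohort it was 0.0544, 1.18 and 4.89 CPM in WT and 0.0467, 0.152 and 0.376 CPM in Hom mice. WT mice spread over a wide range, and Hom mice stayed at its lower end in both cohorts. The mean was 9.01-fold lower in non-amyloid Hom mice (−3.15 on the log2 scale, standard error 0.64, adjusted p = 0.126 by edgeR) and 10.3-fold lower in amyloid Hom mice (−3.38 on the log2 scale, standard error 0.66, adjusted p = 0.0487), and over both cohorts the log2 fold change was −3.27 (adjusted p = 8.46e-05). The amyloid call failed in 14 of the 20 fits without 1 library, that without replicate 19 among them, with adjusted p up to 0.105 and log2 fold changes from −3.53 to −3.09. The call over both cohorts held in all 40 fits without 1 library and in 9 of 10 alternatives. It was lost with limma-voom and sample quality weights.

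Across the 40 mice *Capn11* had a lower band of values, set apart from the higher ones by a wide gap. Of 108 neighbours with a mean of at least 0.1 CPM, it was the single one with a gap of at least 0.75 on the log2 scale between neighbouring mice, with at least 3 mice on each side. Its widest gap measured 0.89 on the log2(CPM + 0.1) scale and ran from 0.376 to 0.778 CPM. Below it lay all 20 Hom mice together with 5 non-amyloid and 4 amyloid WT mice, and above it lay 5 non-amyloid and 6 amyloid WT mice and no Hom mouse. The 9 WT mice below the gap were non-amyloid replicates 7, 17, 18, 28 and 38 and amyloid replicates 8, 9, 13 and 32, 4 of them female and 5 male, so both sexes stood on each side. The counts behind the lower band were small, from 3 to 23 in Hom mice, and the highest WT mouse had 537. The rule took only the widest gap of each gene. The values above it were themselves split nearly as widely, between 0.813 CPM in WT replicate 24 and 1.58 CPM in WT replicate 36.

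The WT mice low for *Capn11* were not those low for *Gm37176*. Replicate 38, at 0.216 CPM of *Capn11*, had 7.91 CPM of *Gm37176*, the highest of the 40 mice. Replicate 12, at 3.60 CPM of *Capn11*, had 2.57 CPM of *Gm37176*, the lowest of the WT mice. After removal of each group's mean, Spearman's rho between both genes was −0.34 over the 20 WT mice and 0.15 over the 20 Hom mice, as a description over libraries that each pair of values shares. Ranked by the widest gap of each gene, *Gm37176* came second, with 0.66 between 1.30 and 2.12 CPM. Below this gap lay 9 Hom mice of each cohort, and above it replicates 14 and 19 with all WT mice.

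**Figure D3:**
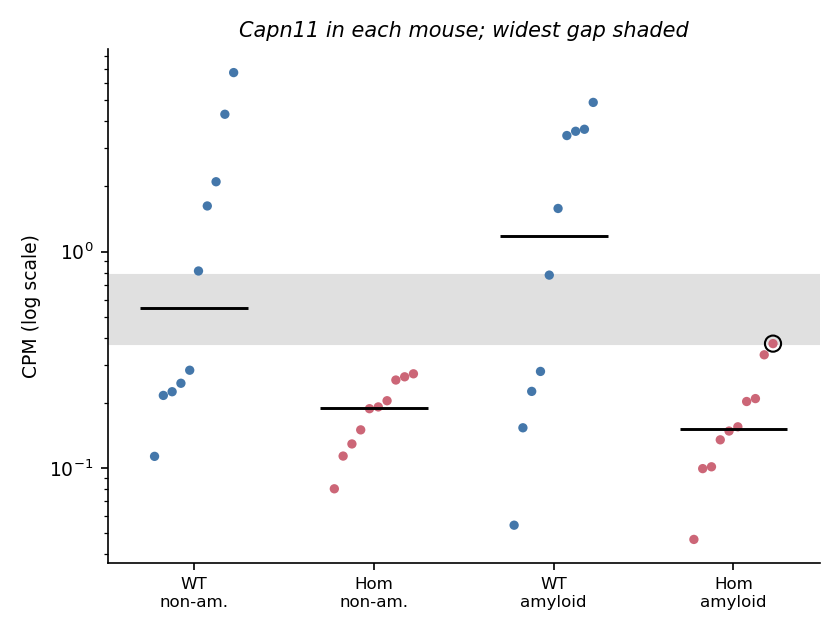
CPM of *Capn11* on a log axis in each of the 40 mice, by genotype and cohort (blue WT, red Hom); lines are medians, the grey strip is the widest gap between neighbouring mice, and the circle marks replicate 19. All 20 Hom mice lie below the strip, and WT mice lie on both sides of it.

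*Plcl2* (ENSMUSG00000038910, 50509547 to 50688493), which encodes a phospholipase C-like protein without lipase activity that takes part in inhibitory receptor signalling, was the best measured gene among those called. It had 89.3, 97.6 and 122 CPM in non-amyloid WT and 103, 124 and 146 CPM in non-amyloid Hom mice, and 82.5, 91.6 and 106 CPM in amyloid WT and 96.0, 113 and 124 CPM in amyloid Hom mice. All 10 Hom mice of each cohort lay above the WT median, and 6 non-amyloid and 8 amyloid Hom mice lay above every WT mouse. The difference was small, 1.23-fold and 1.21-fold, and its standard errors of 0.06 and 0.05 on the log2 scale were the smallest of the 9 genes called. It was called over both cohorts (log2 fold change 0.29, adjusted p = 8.14e-05 by edgeR) in each of the 40 fits that left out 1 library.

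*Mrpl14* (ENSMUSG00000023939, 45686322 to 45698495), a subunit of the mitochondrial ribosome, had 4.88, 7.91 and 13 CPM in non-amyloid WT and 9.25, 13 and 16.8 CPM in non-amyloid Hom mice. The amyloid levels were 4.49, 8.26 and 9.87 CPM in WT and 8.46, 10.8 and 14.3 CPM in Hom mice. Every Hom mouse stood above the WT median of its cohort, 5 and 7 of them above every WT mouse. The log2 fold change was 0.61 (standard error 0.16, adjusted p = 0.620) and 0.56 (standard error 0.13, adjusted p = 0.0747) in the single cohorts, which missed the call, and 0.59 over both (adjusted p = 0.00245 by edgeR). Exons of *Tmem63b*, a membrane channel gene on the opposite strand, cover 11.2% of its exonic bases, and the strand setting of the counting is not stated. *Tmem63b* had log2 fold changes of 0.07 (adjusted p = 0.965) and −0.11 (adjusted p = 0.658).

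*Clic5* (ENSMUSG00000023959, 44188572 to 44280168), an intracellular chloride channel protein tied to the cortical cytoskeleton, had 10.1, 12.6 and 14.3 CPM in non-amyloid WT and 12.8, 14.2 and 16.3 CPM in non-amyloid Hom mice. The amyloid levels were 8.48, 10.7 and 13 CPM in WT and 11.9, 13.1 and 14 CPM in Hom mice. All Hom mice stood above the WT median of their cohort. Over both cohorts its adjusted p was 0.00945 by edgeR and its log2 fold change of 0.24 lay under the threshold of 0.25, so that it was not called. It was called in 3 of the 40 fits over both cohorts that left out 1 library. Its log2 fold change was 0.27 (adjusted p = 0.0821 by edgeR) in the amyloid and 0.22 (adjusted p = 0.945) in the non-amyloid cohort. In the amyloid cohort DESeq2 and all 40 libraries in 1 fit called *Clic5*.

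*Mdfi* (ENSMUSG00000032717, 47815328 to 47834691), an inhibitor of myogenic transcription factors, and the lincRNA *Gm19585* (ENSMUSG00000100150, 52149289 to 52163048) were measured on few reads. *Mdfi* had a median of 10.5 counts in non-amyloid WT and 3 in non-amyloid Hom mice, and 11 and 3 counts in the amyloid groups. Its level was 0.0532, 0.136 and 0.253 CPM in non-amyloid WT and 0.0118, 0.0355 and 0.0877 CPM in non-amyloid Hom mice, and 8 of 10 Hom mice stood under the WT range. Amyloid levels were 0.0335, 0.154 and 0.356 CPM in WT and 0, 0.0445 and 0.125 CPM in Hom mice, the 0 being that of replicate 19. Over both cohorts the log2 fold change was −1.71 (adjusted p = 0.00218 by edgeR).

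*Gm19585* ran the other way, with 0.0155, 0.0715 and 0.165 CPM in non-amyloid WT and 0.0321, 0.186 and 0.581 CPM in non-amyloid Hom mice. Its amyloid levels were 0, 0.0605 and 0.128 CPM in WT and 0.0296, 0.140 and 0.239 CPM in Hom mice. The groups overlapped in both cohorts, and the call over both (log2 fold change 1.38, adjusted p = 0.0417 by edgeR) held in 16 of the 40 fits that left out 1 library. The call was lost without replicate 19 (adjusted p = 0.0571 by edgeR), with limma-voom and sample quality weights and with no filter on low counts.

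**Figure D4:**
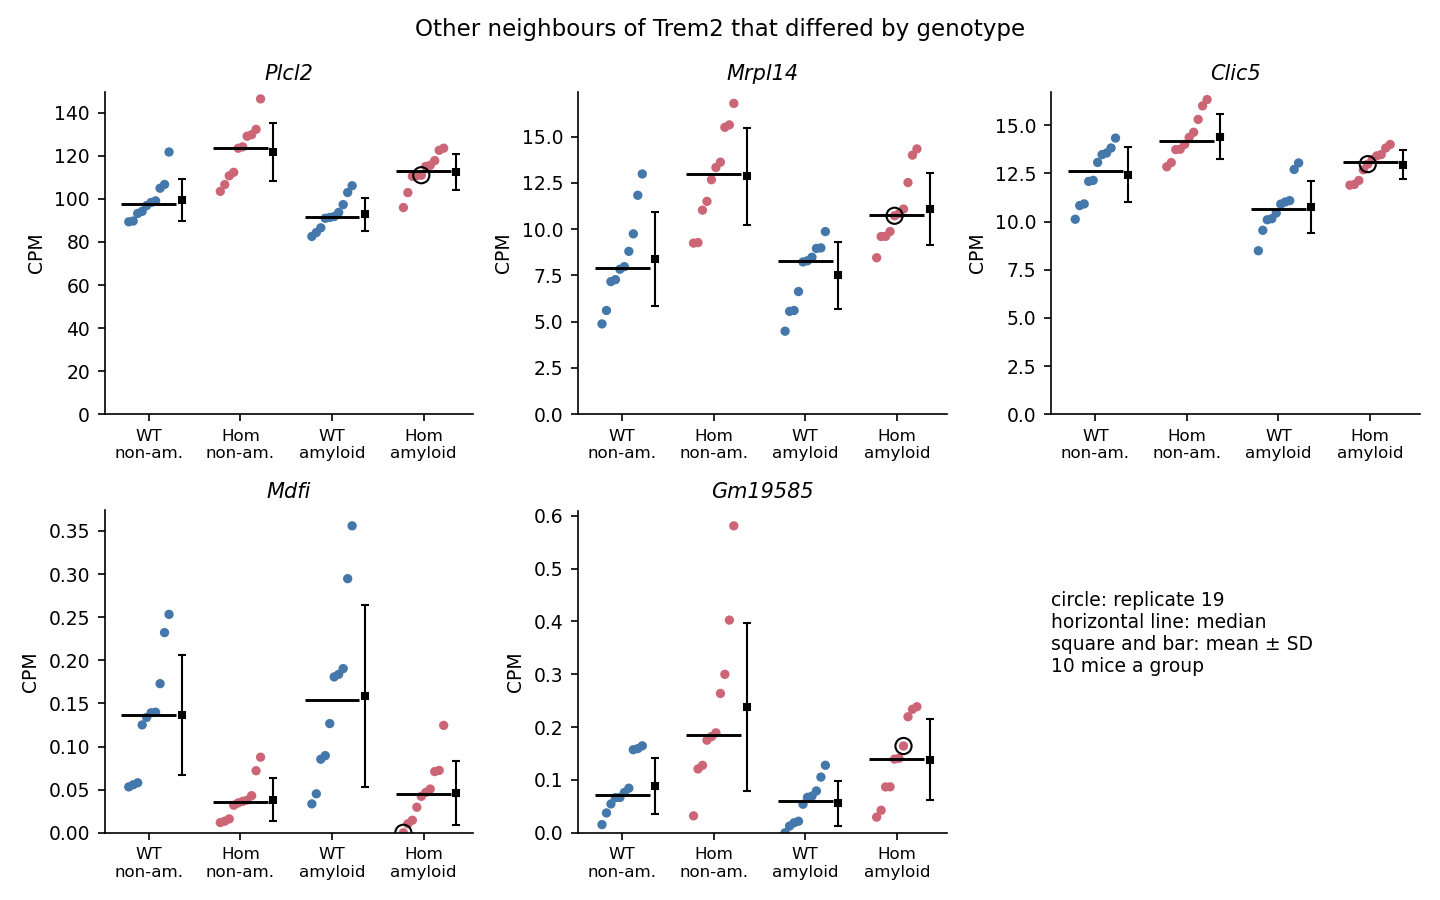
CPM (vertical axis, from 0) of Plcl2, Mrpl14, Clic5, Mdfi and Gm19585 in each of the 40 mice, by genotype and cohort (blue WT, red Hom); lines are medians, squares with bars are means ± SD of 10 mice, and the circle marks replicate 19. Hom mice are shifted up for Plcl2, Mrpl14, Clic5 and Gm19585 and down for Mdfi, with overlap between the groups of every panel.

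To ask whether amyloid background altered these differences, the genotype effect was compared between cohorts. No neighbour had an interaction of genotype and cohort that passed (0 of 116 by edgeR, beside 0% of all genes called), and DESeq2 and limma-voom also called 0 neighbours. At an unadjusted p under 0.05 the interaction counted 10 neighbours (8.62%) beside 10.3% of all genes, with the lowest for *Daam2* (unadjusted p = 0.00472, adjusted p = 0.266). For *Gm37176* the unadjusted interaction p was 0.138 and for *Capn11* 0.805. These values do not show that the effects were equal, since the standard errors of the single-cohort fold changes were 0.21 and 0.30 for *Gm37176* and 0.64 and 0.66 for *Capn11*. The log2 fold changes had the same sign in both cohorts for 59 of 116 neighbours (50.9%), beside 41.3% of all genes. Pearson's r between the cohorts was 0.80 over the 116 neighbours and −0.02 over all genes, and Spearman's rho was 0.29 and −0.15. These are correlations across genes, which are not independent replicates, and the value of Pearson's r rests on the few genes with large fold changes.

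**Figure D5:**
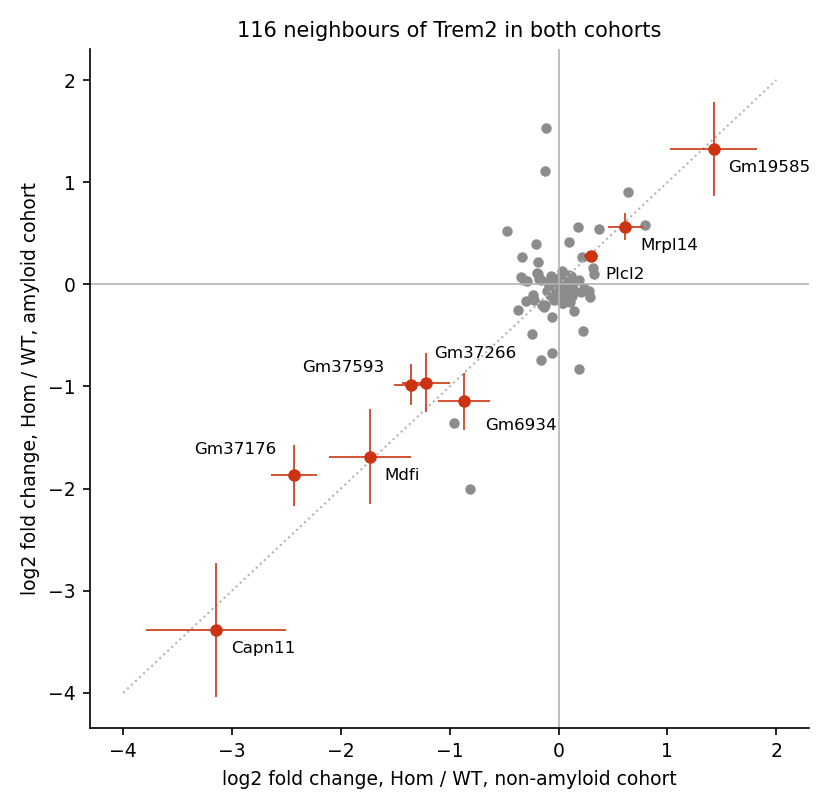
Log2 fold change of Hom against WT mice in the amyloid cohort (vertical axis) against that in the non-amyloid cohort (horizontal axis) for the 116 genes; red points with bars are the 9 genes called over both cohorts, with their standard errors, and the dotted line marks equal values. The 9 red points lie in the 2 quadrants of equal sign, and the grey points gather around 0.

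Of the 10 genes nearest to *Trem2*, 5 on either side, 1 was called in the main fits, and that over both cohorts alone. On the side of lower coordinates, the 5 nearest neighbours were *B430306N03Rik* (30.3 kb away), the pseudogene *Gm5228*, the transcription factor gene *Foxp4*, *Mdfi* (531 kb) and *Tfeb*, a regulator of lysosomal genes, and on the other side *Nfya* (40.5 kb), *Oard1*, *Apobec2*, *Unc5cl* and *Lrfn2*. The gene called was *Mdfi*, whose adjusted p was 0.108 in the amyloid and 0.262 in the non-amyloid cohort by edgeR. With all 40 libraries in 1 fit, *Mdfi* was also called in the amyloid cohort. *Nfya*, a subunit of the CCAAT-binding factor, had 25.6, 28.9 and 38.6 CPM in amyloid WT and 19.8, 24.5 and 31.7 CPM in amyloid Hom mice (log2 fold change −0.32, adjusted p = 0.0852 by edgeR), and replicate 19 gave the lowest of these values. *Nfya* was not called without that library either, but it was called in the amyloid cohort in 2 of 11 alternatives, DESeq2 and all 40 libraries in 1 fit. In the non-amyloid cohort its log2 fold change was −0.06 (adjusted p = 0.965). *B430306N03Rik*, the closest gene, was not called in these fits, at a mean level of 0.379 CPM. Its log2 fold change was −0.83 (adjusted p = 0.243 by edgeR) in the amyloid and 0.19 (adjusted p = 0.970) in the non-amyloid cohort. *Unc5cl* and *Apobec2* had positive log2 fold changes in both cohorts, 0.80 and 0.58 for the former and 0.64 and 0.90 for the latter, at mean levels of 0.130 and 0.0633 CPM, and neither was called.

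By distance, the segment from 3 to 4 Mb above *Trem2* held 9 neighbours, of which 5 were called over both cohorts, with a median absolute log2 fold change of 1.01. The segment from *Trem2* to 1 Mb above it held 5, with 0 called by edgeR and a median of 0.19, the second largest of the 10 segments, and the segment from 1 Mb below up to *Trem2* held 23, with 1 called and a median of 0.09. The segment from 2 to 3 Mb below it held 29, with 2 called and a median of 0.06, and the segment from 1 to 2 Mb below it held 27, with 0 called by edgeR and a median of 0.04. At the edges of the window, *Adgrf5* was the first gene inside and *Tnfrsf21* the last outside at lower coordinates, with log2 fold changes of 0.09 and 0.02 in the amyloid cohort. *Kcnh8* was the last inside and *Efhb* the first outside at higher coordinates, with log2 fold changes of 0.07 and 0.74 in the amyloid cohort (adjusted p = 0.155 for *Efhb* by edgeR). In the non-amyloid cohort the log2 fold change of *Efhb* was −0.28 (adjusted p = 0.965 by edgeR), at a mean level of 0.257 CPM. At the edge of the count filter stood *Mep1a* and *C230085N15Rik*, each with that many counts in exactly 4 libraries, while *Prph2* and *Frs3os*, with as many in 2 libraries, were left out. *Mep1a* had a log2 fold change over both cohorts of −1.42 (adjusted p = 0.287 by edgeR). Its 4 libraries were all WT (replicates 1, 5, 12 and 27), so it passed the filter only through the genotype where it was higher. Replicate 12 alone had 86 counts, and the next highest had 17. Of the genes called, *Mdfi* had 10 counts or more in 11 WT and 1 Hom libraries, so it passed the filter through the group where it was higher. *Gm19585* had as many in 4 WT and 12 Hom libraries, so that either genotype alone met the filter.

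The most abundant neighbours per kilobase of exon differed little between genotypes. They were *Hsp90ab1*, a cytosolic chaperone, with a mean of 573 FPKM (CPM divided by the exon length in kb), *Enpp5*, an ectoenzyme, with 94.8, *Rcan2*, an inhibitor of calcineurin, with 87.6, *Mea1* with 65.8, *Pla2g7*, the lipoprotein-associated phospholipase, with 56.5, *Klhdc3* with 53.0, *Ppp2r5d*, a regulatory subunit of protein phosphatase 2A, with 35.3 and *Tomm6*, a subunit of the mitochondrial import channel, with 31.4. None of the 8 was called. *Hsp90ab1* had log2 fold changes of 0.12 and 0.02 in the non-amyloid and amyloid cohorts (adjusted p = 0.965 and 0.904). *Tomm6* had log2 fold changes of −0.14 and −0.22 (adjusted p = 0.965 and 0.201). The median neighbour had a level of 2.67 FPKM, and 92 of the 116 held 10 counts or more in all 40 libraries.

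The neighbours were also grouped by function. Of 16 genes for transcription and chromatin factors, 1 was called over both cohorts (*Mdfi*, lower), and *Satb1*, *Zfp318* and *Nfya* were not, with log2 fold changes of 0.07, 0.03 and −0.19. Of 7 genes for mitochondrial proteins, *Mrpl14* alone was called over both cohorts, as higher. *Aars2*, the mitochondrial alanyl-tRNA synthetase, had log2 fold changes of −0.48 (adjusted p = 0.0974 by edgeR) and −0.25 (adjusted p = 0.965) in the amyloid and non-amyloid cohorts. Of 11 alternatives, DESeq2 alone called *Aars2* in the amyloid cohort. Of 13 genes for neuronal signalling, adhesion and transport, *Plcl2* was called higher, and *Rcan2*, *Tmem151b* and *Kif6*, a kinesin, were not (log2 fold changes over both cohorts 0.08, 0.01 and −0.18). None of 5 vessel and barrier genes was called in the main fits, with *Clic5* nearest to it, and *Vegfa*, the vascular growth factor, had a log2 fold change of 0.04.

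None of 11 genes for protein folding, ubiquitin and the cell cycle, 12 for metabolic enzymes and transporters, 3 for ribosome assembly and 6 measured immune cell genes was called between genotypes by edgeR. At an unadjusted p under 0.05 over both cohorts, these lists held 0, 1, 0 and 3 genes, beside 7.65% of all genes. The lists above held 6 of 16 transcription and chromatin factors, 3 of 7 mitochondrial genes, 3 of 13 neuronal genes and 1 of 5 vessel and barrier genes at that p. *Ccnd3*, a cyclin of the G1 phase, had a log2 fold change of −0.02, *Slc35b2* one of −0.07 and *Bysl* one of 0.02 over both cohorts. The median log2 fold changes of the 8 lists ranged from −0.06 to 0.34 in the amyloid cohort and from −0.04 to 0.27 in the non-amyloid cohort, the largest in each for the immune cell genes, which include *Apobec2* and *Unc5cl* at the low levels given above. Of the 116 neighbours, 45 were on no list, *Capn11* and the 4 TEC genes among them.

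Amyloid WT mice were compared to non-amyloid WT mice to see how far these genes differ with cohort. The test called 5 neighbours (4.31%), beside 7.95% of all genes, so that the share of neighbours was below the background. These 5 were named after their values were seen. *B430306N03Rik*, a gene next to the *Trem* cluster, had 0.0464, 0.216 and 0.266 CPM in non-amyloid WT and 0.348, 0.591 and 1.35 CPM in amyloid WT mice, with no overlap (log2 fold change 1.94, adjusted p = 7.97e-06 by edgeR). *Daam2*, an activator of actin assembly and Wnt signalling, had 65.7, 72.5 and 84.2 against 78.3, 90.6 and 115 CPM (log2 fold change 0.36, adjusted p = 0.000102), and *Rftn1*, a lipid raft protein of lymphocytes, 4.44, 6.41 and 6.92 against 6.38, 7.37 and 13.4 CPM (log2 fold change 0.45, adjusted p = 0.00383). *Guca1a*, a guanylate cyclase activator of photoreceptors, was also higher (log2 fold change 1.43, adjusted p = 0.0219), and *Cyp39a1*, an oxysterol hydroxylase, was lower (log2 fold change −0.59, adjusted p = 0.00885). None of the 9 genes that differed by genotype over both cohorts was among these 5, and age and amyloid background cannot be told apart in this comparison.

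Within groups, some of the genes that differed by genotype varied together over the 40 mice. After removal of each group's mean, *Gm37266* and *Gm37176* had a Spearman's rho of 0.79, and *Gm37593* and *Gm37266* one of 0.71. Over the 20 WT mice alone *Gm37266* and *Gm37176* had a rho of 0.94, and over the 20 Hom mice one of 0.60. *Plcl2* was most like *Tfeb* (rho −0.74), *Mrpl14* most like *Gm21981* (0.83) and then *Yipf3* (0.83), *Clic5* most like *Rcan2* (0.67), and *Capn11* had no value beyond 0.46, that with *Rftn1*. For comparison, the median absolute rho over all 6670 pairs of neighbours was 0.26, and 5% of the pairs exceeded 0.753. Values of a pair come from the same libraries and share their depth and scaling.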

How the data were processed

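Cortical poly-A RNA of 40 mice was sequenced, 10 mice per group. Per the labels, the authors' processing notes name STAR 2.5.2b, featureCounts 1.5.1 and edgeR with the mm10 genome, while the paper's methods name TopHat and Bowtie within MAP-RSeq, so the aligner is uncertain; the strand setting of the counting is not given in the sources used here. The deposited values are raw counts per gene, whole numbers with no normalization by the authors. CPM and FPKM values were computed here from these counts.

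Libraries held 41646271 to 105903846 counts. Of the table, 21253 genes reached 10 counts or more in 4 or more libraries; they were scaled by TMM and tested by edgeR 4.0.16 (quasi-likelihood) in R 4.3.3, with Benjamini-Hochberg adjustment over all genes tested, within each cohort, over both cohorts and for the interaction. All 10 amyloid Hom libraries entered the fits, although the paper's own analysis dropped a female of this group, not named there, for its low share of gene counts and its strand check; replicate 19 is a female of this group with the lowest total and the largest antisense share, and whether it is the dropped one is not given in the sources used here.

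Named genes are those called between genotypes, those with an unadjusted p under 0.01 in both cohorts in the same direction, those with no overlap or with bands, the 5 nearest *Trem2* on either side, the 8 of highest level per length, up to 4 examples per list and the genes at the window's ends. The genes, lists and tests were chosen with earlier results of these data known. Symbols are those of GENCODE vM21 for 115 of 116 genes, matched by identifier, and 1 gene kept the name of the file. The test was tried on simulated data. Alternatives used DESeq2 1.42.0, limma 3.58.1 (voom), other scaling and filters, sex as a covariate and leaving out each library; each mouse has its own number, and the litters that genotypes may share are not given. Counts on genes that overlap an exon of the opposite strand are uncertain (34 of the 115). Figures were drawn with matplotlib 3.10.9.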

Additional observations from a re-analysis of the deposited data

Results flagged for a closer look

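The 10 genes with an unadjusted p under 0.01 in each cohort were examined in each of the 4 groups for a mouse far from the other 9, by Dixon's criterion (the gap to the nearest mouse as a share of the group's range). Of these 40 sets of 10 mice, 6 had such a mouse, and chance alone gives about 1 in 20. In 4 of the 6 it was amyloid Hom replicate 19, the library with the lowest total and the largest share of counts on antisense genes (0.660%): it had 0.422 CPM of *Gm6934* (next highest 0.237), 1.95 CPM of *Gm37593* (next 0.910), 2.89 CPM of *Gm37266* (next 1.08) and 4.41 CPM of *Gm37176* (next 1.30). For *Capn11* it was also the highest amyloid Hom mouse, at 0.376 CPM, and for *Plcl2*, *Mrpl14* and *Clic5* it had 111, 10.7 and 13 CPM, within the range of the other Hom mice. Of the 116 neighbours, 13 had their highest and 27 their lowest amyloid Hom value in this library. It was also far above every other mouse for *Tcte1* (29.8 CPM, next 3.17), *Tomm6os* (22.2, next 4.86) and *Kpna2-ps* (3.80, next 0.305). Exons of the opposite strand cover 23.7%, 48.9% and 100% of the exonic bases of these genes. They cover 65.5% of *Runx2os1* and 62.2% of *Prickle4*, where replicate 19 had 0.211 and 7.09 CPM, within the range of the other mice. Of *Gm37593*, *Gm37266* and *Gm37176* they cover 0%. The other 2 of the 6 flagged mice were non-amyloid Hom replicate 2, with 0.415 CPM of *Gm6934* (next 0.237), and non-amyloid Hom replicate 14, with 2.12 CPM of *Gm37176* (next 1.15). Replicate 14 was also the highest non-amyloid Hom mouse for *Gm37266* (1.24 CPM) and *Gm37593* (0.925 CPM). The cause of these values was not tested.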

How the results depend on the processing

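The count of neighbours called in the amyloid cohort, 3 by edgeR, depended most on the processing: it was 9 with DESeq2, 5 with limma-voom and sample quality weights, 6 with sex as a covariate, 10 with all 40 libraries in 1 fit and 1 with no filter on low counts. All genes called in those fits numbered 300, 25, 251, 612 and 9, against 16, and 66 with filterByExpr, where 4 neighbours were called. Leaving out each library in turn gave 1 to 5 neighbours, with 1 without WT replicate 5, 12, 26 or 36 or Hom replicate 16, 30, 39 or 40 and 5 without WT replicate 13. In the non-amyloid cohort the count was 5 with DESeq2, beside 11 of all genes against 7 by edgeR, and 2 or 3 in every other fit. Without replicate 19 the amyloid neighbours with no overlap rose from 0 to 2, and all genes with no overlap from 2 to 6. Over both cohorts 7 to 10 neighbours were called in each fit, the interaction gave 0 in each (all genes: 27 with DESeq2 and 12 with sex as a covariate), and the WT comparison 4 to 7; over both cohorts all genes called were 103 with DESeq2, 82 with sex as a covariate and 23 with limma-voom, against 35. Of 607 refits of single genes, 530 kept their side of the threshold, 48 lost a call, 29 gained one and 0 changed sign. *Gm37176* was called in every fit of each cohort. The amyloid call of *Plcl2* was lost with no filter (adjusted p = 0.0541) and in 9 of the 20 fits without 1 library (WT replicates 5, 12, 26, 32 and 36 and Hom replicates 16, 30, 39 and 40; adjusted p up to 0.0965). That of *Capn11* was lost in 14 (WT replicates 5, 12, 26, 27 and 36 and Hom replicates 10, 16, 19, 25, 30, 33, 34, 39 and 40) and with limma-voom, no filter or robust dispersion (adjusted p up to 0.386). The cause of these changes was not tested. No paired analysis was possible because the replicate numbers run from 1 to 40 and no number is shared between groups and the litters are not given in the sources used here. Genes under about 0.1 CPM rest on few counts, so differences in *Mdfi*, *Gm19585*, *Apobec2* and *Mep1a* are imprecise.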
